A study of Mus musculus and Homo sapiens
Mus musculus with 14 samples.

Results

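Long noncoding RNAs (lncRNAs) are transcripts that are not translated into a known protein. 52 of them made up the abundant lncRNAs of the retina in these data. They were selected on measured values, as the symbols that the mouse gene table types as lncRNA and that held 100 or more UMIs summed over 12 libraries of retinal layers. A UMI (unique molecular identifier) is a random tag that allows copies of one cDNA molecule to be counted once. The layer table listed 24460 gene symbols, of which 7434 reached 100 UMIs and 3352 were typed as lncRNA. Among those 3352, 3226 had at least 1 UMI, so that the 52 were a small part by number, yet they held 59160 UMIs, 73.2% of all lncRNA UMIs and 1.03% of all UMIs. The last symbols inside the minimum were Cep83os with 101 UMIs, AI504432 with 100 and Gm49654 with 100, and the first outside it were 4933404O12Rik with 99, D130017N08Rik with 99 and Norad with 97. Tug1 and Snhg11, often described as noncoding, were typed as protein coding there and are not among the 52.

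Light-Seq copies RNA into cDNA in fixed tissue with a degenerate primer, attaches a DNA barcode to the cDNA of illuminated cells, and then sequences the barcoded cDNA. All retinas came from wild-type (WT) CD1 IGS mice in the third postnatal week. The photoreceptor layer (outer nuclear layer, ONL), the bipolar cell layer (BCL) and the ganglion cell layer (GCL) were barcoded in each of 4 sections of a single animal, so that the spread between sections is technical. In 5 further sections, called technical replicates in the study's methods and not tied to animals by the labels, amacrine cells positive for tyrosine hydroxylase (TH+, the dopaminergic amacrine cells) and TH− amacrine cells received separate barcodes, with only a few TH+ cells pooled in each section. The methods mention a single source animal for Light-Seq, and p-values over sections therefore measure only the spread between sections. In addition, 3T3 mouse fibroblasts from 3 wells of a mixed culture served as a nonretinal reference. A level is given as CPM, the UMIs of a gene per 1000000 UMIs of its library. Because every layer library is a pool of cells, fewer cells of a type and less RNA per cell cannot be told apart.

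Libraries held 310228 to 801105 UMIs in the ONL, 193869 to 208437 in the BCL, 585655 to 785013 in the GCL, 30317 to 87449 in TH+ cells and 134394 to 200344 in TH− cells. Summed rod, bipolar, ganglion cell, amacrine and dopaminergic markers were highest in the populations of their labels, where each of these markers was detected. Rod markers (6 of 6 detected) took 5.09% to 6.40% of the UMIs in the ONL, 1.07% to 1.86% in the BCL and 0.405% to 0.703% in the GCL. They also took 1.30% to 3.40% in TH+ and 0.75% to 1.99% in TH− cells. Bipolar markers peaked in the BCL at 0.582% to 0.653% and ganglion cell markers in the GCL at 0.358% to 0.407%. Müller glia markers were likewise highest in the BCL, at 0.606% to 0.666%. In TH+ and TH− cells they took medians of 0.285% and 0.424%, above the 0.274% and 0.325% of amacrine markers. Dopaminergic amacrine markers took a median of 0.272% in TH+ and 0.0185% in TH− cells.

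LncRNAs act in several ways. Some are the precursors from which microRNAs (miRNAs) or small nucleolar RNAs (snoRNAs) are cut, some stay in the nucleus and organize splicing bodies or silence imprinted genes, and some are read from the strand opposite a transcription factor gene. In the retina, named examples include the miR-124 host Rncr3 (Mir124a-1hg here), Miat, which is also called Gomafu, and the opposite-strand transcripts Six3os1 and Vax2os of the eye field genes Six3 and Vax2.

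A few members carried most of the molecules. Gm15564 alone held 22803 UMIs, 38.5% of the UMIs of the 52, and with Malat1 (10059 UMIs) 55.5%. 8 members exceeded 1000 UMIs, 27 had under 200 and the median was 192.5. 43 had a UMI in all 12 layer libraries, and each of the 52 had at least 1 in TH+ and in TH− cells. By mean CPM, 28 peaked in the ONL, while the BCL and the GCL had the highest mean of 12 each. In 3T3 fibroblasts, 26 of the 52 had no UMI, 17 had 1 to 9 and 9 had 10 or more, led by Gm15564 at 4339 ± 2888 CPM and Malat1 at 532 ± 274 CPM (SD, n = 3 wells). Cdr1os, Mir124a-1hg, AI847159, Rncr4, Vax2os and Six3os1 were among the 26 without a UMI. The 3 wells held 135565, 206187 and 199128 UMIs, so that RNAs at low levels could be missed there. How many of all genes lacked a UMI in these wells was not tested, so these counts do not show specificity to the retina.

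**Figure D1:**
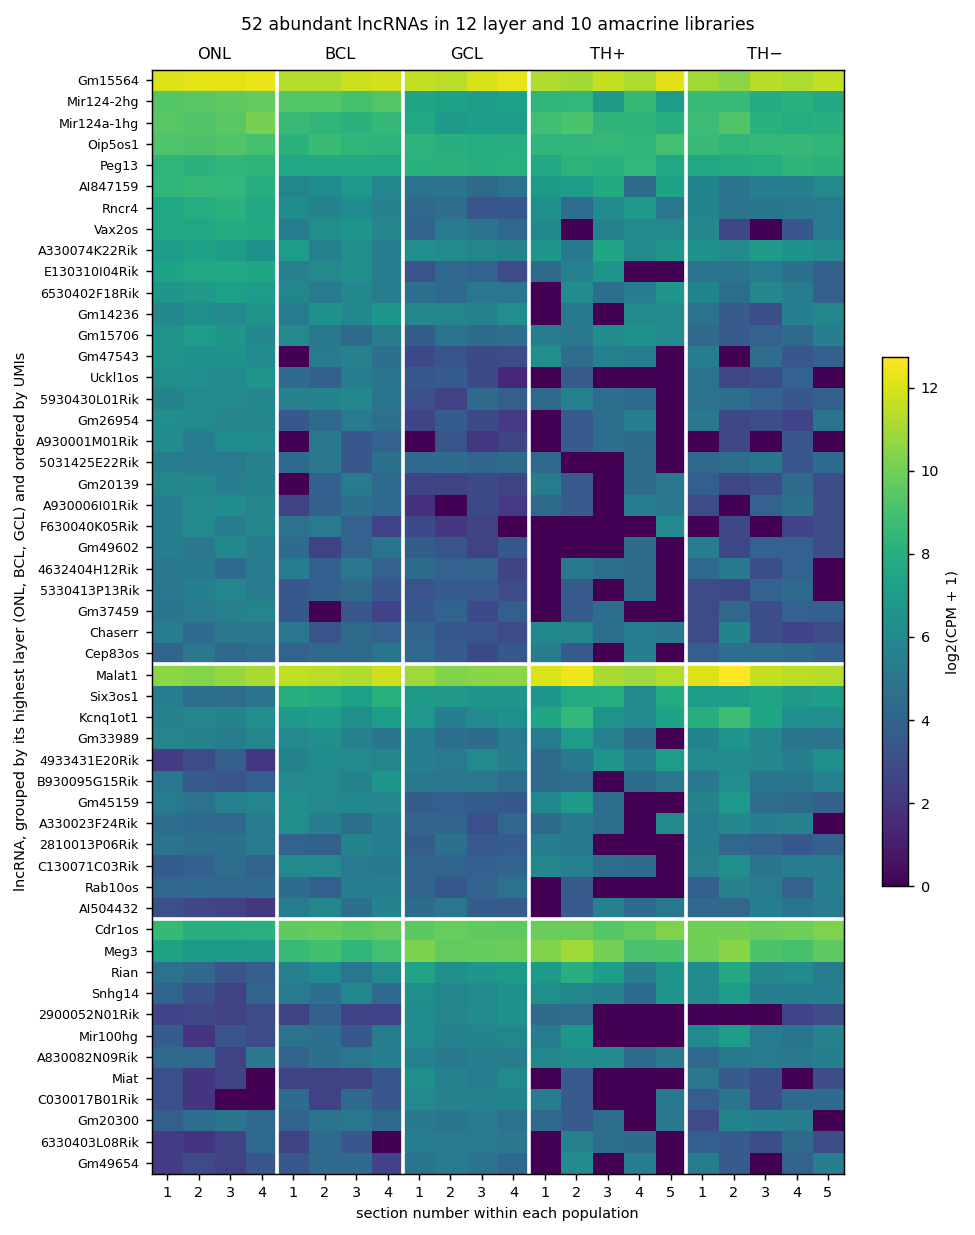
Level of the 52 lncRNAs as log2(CPM + 1) (colour) in each of 22 libraries (columns, numbered by section). Rows are grouped by the layer of the highest mean CPM, 28 for the ONL, 12 for the BCL and 12 for the GCL, and dark cells at 0 are libraries without a UMI, most of them in the shallow TH+ libraries.

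Most members differed between layers. The layers were compared with the quasi-likelihood test of edgeR over 11324 genes, with Benjamini-Hochberg adjusted p under 0.05 counted as a call, and 50 of the 52 were called in at least 1 pair of layers, as were 69.3% of all genes tested. Between the ONL and the GCL, 33 members were higher in the ONL (63.5%, against 29.3% of all genes tested) and 14 had more in the GCL (26.9%, against 32.2%). Between the ONL and the BCL, 25 had a higher ONL level (48.1%, against 18.5%) and 12 a higher BCL level (23.1%, against 18.2%). Between the BCL and the GCL, 21 had a higher BCL level (40.4%, against 16.1%) and 11 a higher GCL level (21.2%, against 20.4%). The median log2 fold change of the members was 1.0 for ONL against GCL, 0.50 for ONL against BCL and 0.63 for BCL against GCL. All genes had medians of 0.00, 0.09 and −0.02, and genes with 100 or more UMIs 0.01, 0.12 and −0.06. The members were chosen on these same UMIs, so their medians are only a description.

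Selection on summed UMIs bears on these shares, since 32 members would fall under 100 UMIs without their highest layer. Rncr4, E130310I04Rik, A930006I01Rik, Gm37459, Mir100hg, Rian, Snhg14, Miat, 2900052N01Rik and C030017B01Rik are among those 32. Of the other 20, the ONL exceeded the GCL for 14 and the reverse held for 4. For ONL and BCL these numbers were 9 and 7, and for BCL and GCL 9 and 3. Of 7432 tested genes with 100 or more UMIs, 34.4% were higher in the ONL than the GCL and 36% the reverse. For ONL and BCL these shares were 24.5% and 20.5%, and for BCL and GCL 19.4% and 25.7%. Higher than both other layers were 21.0% for the ONL, 5.8% for the BCL and 22% for the GCL. Of 209 lncRNAs below the minimum that were tested, 37.8% were higher in the ONL than the GCL and 18.2% the reverse. For ONL and BCL these shares were 12.9% and 13.9%, and for BCL and GCL 17.7% and 6.22%. Higher than both other layers were 12.4% for the ONL, 7.18% for the BCL and 5.26% for the GCL, so that the ONL excess over the BCL seen among the members was not seen among these.

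39 members were called higher in a single layer than in both others. The ONL was that layer for 25 (48.1%, against 15.7% of all genes), the BCL for 5 (9.62%, against 5.83%) and the GCL for 9 (17.3%, against 17.5%). Of the 20 members that did not need their highest layer to reach 100 UMIs, these numbers were 9, 3 and 1. The ONL set ran from Gm15564, both miR-124 hosts and Oip5os1 down to Chaserr. In it, the call of Chaserr over the BCL was lost with DESeq2, without TMM scaling and without each replicate in turn, that of 5930430L01Rik with DESeq2, without TMM scaling and without replicate 1, 2 or 4, among others, and that of 5031425E22Rik with DESeq2 and without TMM scaling. The BCL set was Malat1, Six3os1, B930095G15Rik, C130071C03Rik and AI504432, where the call of AI504432 over the GCL was lost with DESeq2 and without replicate 2, 3 or 4, and that of B930095G15Rik without replicate 4. The GCL set was Meg3, Rian, Snhg14, 2900052N01Rik, Mir100hg, Miat, C030017B01Rik, 6330403L08Rik and Gm49654, where the call of Gm49654 over the BCL was lost with DESeq2, without TMM scaling and without replicate 1, 2 or 4.

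**Figure D2:**
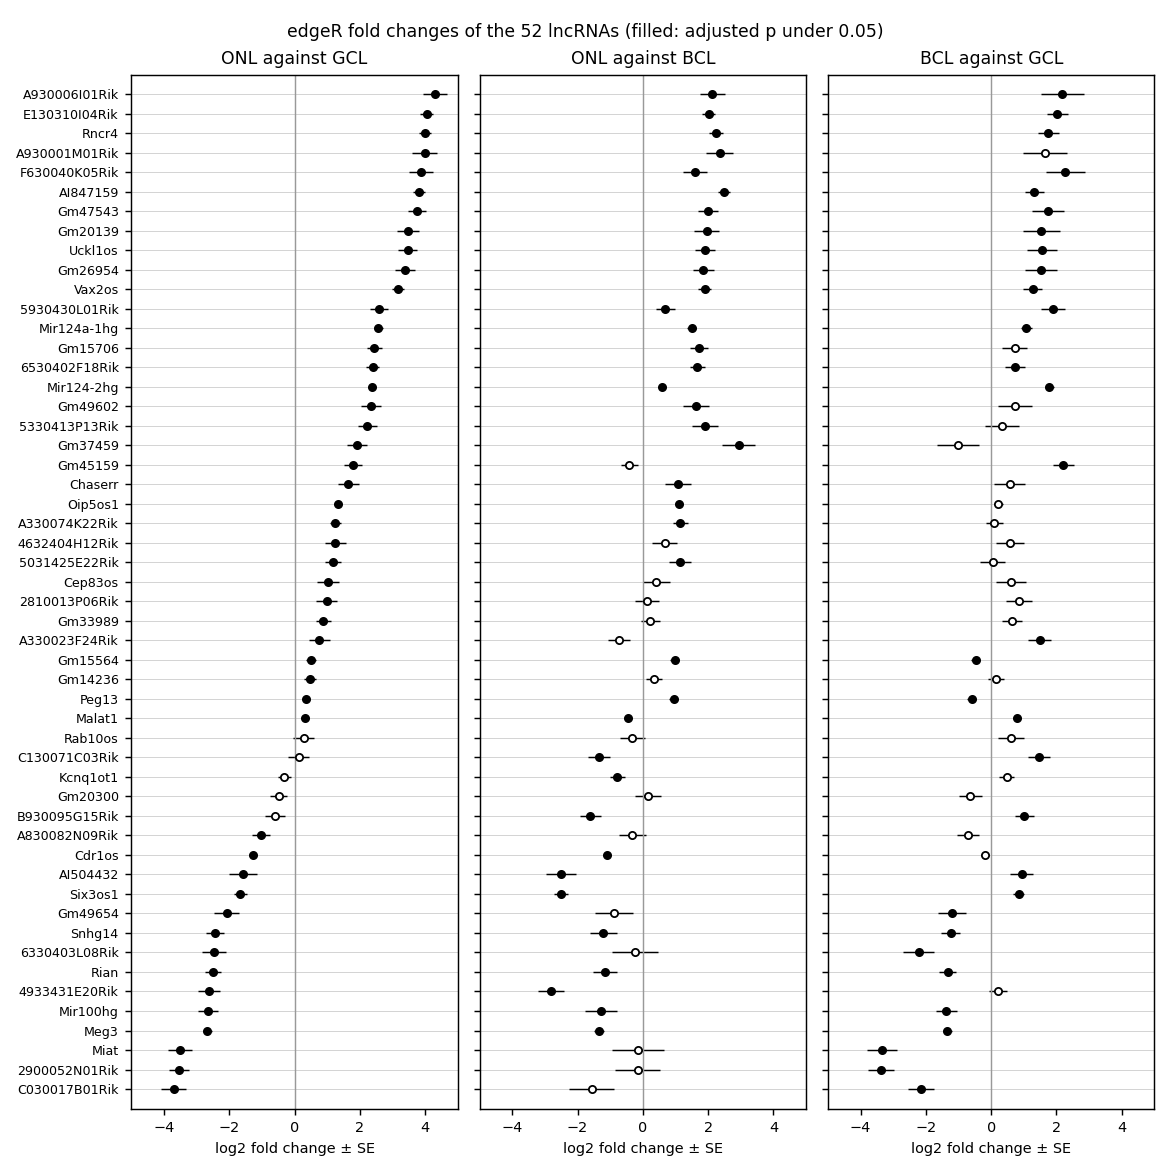
Log2 fold change ± SE of the 52 lncRNAs from edgeR for the 3 pairs of layers, ordered by ONL against GCL, with filled points for an adjusted p under 0.05. Values for ONL against GCL run from −3.71 (C030017B01Rik) to 4.31 (A930006I01Rik), and 47 of the 52 points in that panel are filled.

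AI847159, Rncr4, E130310I04Rik and Vax2os were abundant lncRNAs of the photoreceptor layer. AI847159 was measured at 336, 361, 349 and 245 CPM in the 4 ONL libraries, at 56.7, 72.0, 112 and 54.4 in the BCL and at 28.0, 28.5, 19.98 and 27.3 in the GCL. The 3 layers did not overlap, and the level was higher in the ONL than the GCL by 3.81 ± 0.17 (log2 fold change ± SE, adjusted p = 2.5e-26) and than the BCL by 2.49 ± 0.19 (adjusted p = 1.9e-16). Its Ensembl identifier is absent from the annotation release used here, and its neighbours in RefSeq are Slc20a1, a phosphate transporter gene, and Chchd5.

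Rncr4, named for retinal noncoding RNA, was measured at 201, 239, 276 and 206 CPM in the ONL, at 72.2, 52.8, 71.1 and 49.4 in the BCL and at 20.4, 22.5, 9.22 and 10.2 in the GCL. Again the layers did not overlap, and ONL exceeded GCL by 3.99 ± 0.19 (adjusted p = 4.0e-25). Rncr4 occupies chr6:30172892-30175125 of GRCm39 on the plus strand and starts 3155 bases from Mir183, 3341 from Mir96 and 6900 from Mir182, which lie on the minus strand. Those miRNAs form a cluster known from photoreceptors and other sensory cells. Their mature sequences from RefSeq (GRCm38.p6 table) are shown since they are the nearest genes with a known role, with the seed (bases 2 to 8) in capitals.
miR-183-5p: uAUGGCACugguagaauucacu
miR-96-5p: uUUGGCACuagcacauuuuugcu
miR-182-5p: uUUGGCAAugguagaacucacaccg
No 2 of these seeds were identical. The mature miRNAs themselves were not measured.

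E130310I04Rik was measured at 167, 192, 196 and 187 CPM in the ONL, 46.4, 62.4, 76.2 and 44.5 in the BCL and 8.92, 17.98, 15.4 and 6.83 in the GCL. It was higher in the ONL than the GCL by 4.05 ± 0.20 (adjusted p = 2.0e-24). The gene spans chr16:34763545-34779364 on the minus strand, opposite Mylk, which encodes a myosin light chain kinase and also favoured the ONL, at a mean of 436 CPM against 78.1 in the GCL (log2 fold change 2.65 ± 0.15, adjusted p = 2.1e-22). Exons of the pair overlap, and the counting took no account of strand, so that reads of the shared bases were assigned to neither.

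Vax2os runs opposite Vax2, a homeobox gene that patterns the ventral retina. Its level was 191, 198, 231 and 216 CPM in the ONL, 41.3, 81.6, 102 and 54.4 in the BCL and 16.6, 39.0, 29.2 and 18.8 in the GCL. Vax2os was thus higher in the ONL than the GCL by 3.16 ± 0.18 (adjusted p = 7.8e-22) and than the BCL by 1.89 ± 0.20 (adjusted p = 2.7e-11). Vax2 differed far less between the ONL and the GCL, at mean levels of 88.5 and 73.0 CPM (log2 fold change 0.39 ± 0.16, adjusted p = 0.037). Between the BCL and the GCL the pair was called in opposite directions, Vax2os at 1.27 ± 0.29 and Vax2 at −0.94 ± 0.26.

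Among less abundant members, A930006I01Rik had the largest ONL against GCL log2 fold change of the 52, at 4.31. Its mean was 58.1 ± 12.9 CPM in the ONL against 3.03 ± 2.54 in the GCL (SD, n = 4), with 16.2 ± 8.62 between them in the BCL. Gm37459 had the largest ONL against BCL log2 fold change (2.93 ± 0.50, adjusted p = 2.9e-06), with 41.9 ± 10.7 CPM in the ONL and 6.36 ± 4.92 in the BCL. Both were picked out after their values were seen.

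Hosts of miRNAs split between the layers by host. Mir124a-1hg, the precursor of miR-124 from its first gene copy, was measured at 684, 627, 708 and 1102 CPM in the ONL, 387, 326, 295 and 356 in the BCL and 189, 112, 139.9 and 131 in the GCL. It was higher in the ONL than the GCL by 2.56 ± 0.14 (adjusted p = 4.5e-23), than the BCL by 1.49 ± 0.15 (adjusted p = 1.1e-12), and higher in the BCL than the GCL by 1.07 ± 0.17 (adjusted p = 4.3e-07). Mir124-2hg, which carries the second copy, stood at 669, 719, 756 and 812 CPM in the ONL, 639.6, 648, 528 and 633 in the BCL and 187, 154, 135 and 155 in the GCL. Its ONL and BCL levels were therefore close, at a log2 fold change of 0.59 ± 0.11 (adjusted p = 3.0e-05, lost without TMM scaling), while both exceeded the GCL, by 2.37 ± 0.12 (adjusted p = 1.6e-24) and 1.78 ± 0.13 (adjusted p = 4.7e-17). Mir124a-1hg lies at chr14:64824613-64835573 and Mir124-2hg at chr3:17840052-17906250, both on the plus strand of GRCm39.

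Mir100hg, the host of miR-100, let-7a-2 and miR-125b-1, had the opposite order. Its level was 72.6, 48.0, 52.3 and 56.3 CPM in the GCL, 25.8, 23.99, 10.2 and 39.5 in the BCL and 12.5, 2.77, 9.13 and 6.45 in the ONL, and it was lower in the ONL than the GCL (log2 fold change −2.66 ± 0.31, adjusted p = 1.3e-10). C130071C03Rik, which holds the miR-9-2 gene, peaked in the BCL at 49.9 ± 17.2 CPM, against 16.3 ± 4.59 in the ONL and 15.99 ± 1.46 in the GCL (BCL against GCL 1.46 ± 0.33, adjusted p = 0.00028). A330023F24Rik, which holds the miR-29b-2 and miR-29c genes, was at 47.6 ± 21.7 CPM in the BCL and 14.9 ± 4.91 in the GCL (log2 fold change 1.49 ± 0.35, adjusted p = 0.00056). The last pair of hosts is not on the list of miRNA hosts and was added after the genes inside members were looked up. RefSeq gives the mature miRNAs of these hosts as follows, again with the seed in capitals, to show that miR-29b and miR-29c share 1 seed and the 3 miRNAs of Mir100hg have 3 different ones.
miR-100-5p: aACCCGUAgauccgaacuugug
let-7a-5p: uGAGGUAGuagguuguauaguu
miR-125b-5p: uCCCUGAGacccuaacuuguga
miR-9-5p: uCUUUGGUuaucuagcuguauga
miR-29b-3p: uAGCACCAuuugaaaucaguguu
miR-29c-3p: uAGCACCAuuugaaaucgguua
Of 21 listed miRNA hosts, members and others, 11 could be tested, and the ONL exceeded the GCL for 4 and the reverse held for 4, against 29.3% and 32.2% of all genes.

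Of the 5 imprinted members, Meg3, Rian and Snhg14 were highest in the GCL, Peg13 in the ONL and Kcnq1ot1 in the BCL. Meg3, made from the maternal allele of the Dlk1-Dio3 domain, was measured at 1185, 811, 859 and 939 CPM in the GCL, 387, 465, 335 and 494 in the BCL and 159, 122, 121 and 113 in the ONL. The layers did not overlap, and Meg3 was lower in the ONL than the GCL (log2 fold change −2.68 ± 0.14, adjusted p = 4.5e-24) and lower in the BCL than the GCL (−1.34 ± 0.13, adjusted p = 2.4e-12). Rian, the snoRNA and miRNA host further along the same domain, was at 171, 83.9, 101 and 121 CPM in the GCL, 46.4, 72.0, 30.5 and 64.3 in the BCL and 26.2, 19.4, 9.13 and 12.9 in the ONL. Its ONL against GCL log2 fold change of −2.50 ± 0.24 (adjusted p = 3.6e-13) was close to that of Meg3. Meg3 spans chr12:109506877-109538165 and Rian chr12:109570242-109628150, both on the plus strand.

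Snhg14, the long host of snoRNAs that runs opposite Ube3a, was at 80.3, 57.0, 66.1 and 82.0 CPM in the GCL, 36.1, 23.99, 55.9 and 19.8 in the BCL and 16.2, 8.30, 4.57 and 16.1 in the ONL. Snhg14 was lower in the ONL than the GCL (log2 fold change −2.45 ± 0.28, adjusted p = 3.8e-11). Ube3a, a ubiquitin ligase gene, was not called between these layers (log2 fold change −0.35 ± 0.36, adjusted p = 0.40), and its libraries were spread widely, at 558 ± 634 CPM in the GCL (SD, n = 4).

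Peg13 and Kcnq1ot1 did not follow Meg3. Peg13, which overlaps Trappc9 on the same strand, was at 317, 292, 322 and 309 CPM in the ONL, 191, 206, 208 and 198 in the BCL and 276, 286, 252 and 266 in the GCL. Its ONL level exceeded the BCL by 0.95 ± 0.14 (adjusted p = 6.5e-08) and the GCL by 0.36 ± 0.11 (adjusted p = 0.0032, lost without TMM scaling or the low-count filter), and Trappc9 was not called in any pair of layers. Kcnq1ot1, which silences genes of the Kcnq1 domain in cis, was at 119, 134, 81.3 and 138 CPM in the BCL, 108, 42.0, 67.6 and 82.0 in the GCL and 48.7, 54.0, 50.2 and 74.1 in the ONL, and only the BCL and the ONL were told apart (ONL lower by a log2 fold change of −0.78 ± 0.24, adjusted p = 0.0076). Of 9 listed imprinted lncRNAs, 6 could be tested, and 4 were lower and 1 higher in the ONL than the GCL, where 32.2% and 29.3% of all genes were.

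Promoter sequence is given for members with strong calls for each layer whose promoter could be located, which left out Rncr4 and Mir124a-1hg, as 250 bases before to 50 after a RefSeq start (GRCm38.p6 table), located in GRCm39 by exact match. Capitals mark a match, on either strand, to TAATCC, the core bound by the photoreceptor and bipolar cell factors CRX and OTX2. TGCTGA, a core of the site of the rod factor NRL, and ATTAAT, a core of POU-type homeodomain factors of ganglion cells, had no match in these 4 windows.
AI847159, ONL, chr2:129022544-129022843, minus strand: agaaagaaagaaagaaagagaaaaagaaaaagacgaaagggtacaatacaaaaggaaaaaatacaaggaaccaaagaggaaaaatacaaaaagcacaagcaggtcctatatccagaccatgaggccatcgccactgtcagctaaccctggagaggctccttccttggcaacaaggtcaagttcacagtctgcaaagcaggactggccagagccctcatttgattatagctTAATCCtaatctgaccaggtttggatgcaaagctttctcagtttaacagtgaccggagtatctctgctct
E130310I04Rik, ONL, chr16:34779315-34779614, minus strand: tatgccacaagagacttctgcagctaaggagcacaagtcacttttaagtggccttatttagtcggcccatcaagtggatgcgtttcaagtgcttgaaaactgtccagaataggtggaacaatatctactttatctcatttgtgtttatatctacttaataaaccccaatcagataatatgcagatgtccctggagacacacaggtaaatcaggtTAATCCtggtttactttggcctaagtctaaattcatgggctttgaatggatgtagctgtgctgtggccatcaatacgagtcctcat
Six3os1, BCL, chr17:85925775-85926074, minus strand: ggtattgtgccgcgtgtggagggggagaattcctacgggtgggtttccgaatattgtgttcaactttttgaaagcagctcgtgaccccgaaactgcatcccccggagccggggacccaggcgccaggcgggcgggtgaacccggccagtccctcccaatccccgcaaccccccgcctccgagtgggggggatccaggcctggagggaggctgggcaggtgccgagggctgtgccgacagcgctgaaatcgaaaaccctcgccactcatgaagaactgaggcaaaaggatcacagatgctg
Meg3, GCL, chr12:109506629-109506928, plus strand: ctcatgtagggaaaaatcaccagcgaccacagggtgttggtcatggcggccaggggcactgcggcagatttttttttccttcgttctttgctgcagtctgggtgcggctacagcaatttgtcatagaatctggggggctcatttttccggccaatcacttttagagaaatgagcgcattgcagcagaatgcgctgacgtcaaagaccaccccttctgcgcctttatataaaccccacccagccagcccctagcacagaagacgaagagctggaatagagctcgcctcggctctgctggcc
Of the members called higher in a layer than in both others, 13 for the ONL, 4 for the BCL and 6 for the GCL had a located promoter. TAATCC was found in 2, 1 and 0 of them, the ONL ones being those shown, and in 7.06% of all 32851 promoter windows. TGCTGA was found in 1, 0 and 2 of them and in 19.5% of all windows, and ATTAAT in 0, 0 and 1 and in 4.75%. These counts keep windows far from the gene's GENCODE start. With starts within 1000 bases there were 8, 2 and 3 windows, of which 1, 0 and 0 held TAATCC, 1, 0 and 1 TGCTGA and 0, 0 and 1 ATTAAT. AI847159 and B930095G15Rik, which held TAATCC, had no GENCODE start to measure from, and the window of Mir100hg, which held TGCTGA, lay 49501 bases away. The end of ATTAAT and the start of TAATCC share letters, so that a match to each can overlap.

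Six3os1 runs opposite Six3, a homeobox gene of eye development, at chr17:85908079-85926066 on the minus strand. It was measured at 253, 225, 147 and 272 CPM in the BCL, 124, 112, 105 and 104 in the GCL and 43.7, 23.5, 22.8 and 29.0 in the ONL. The layers were separate, and the ONL was lower than the BCL (log2 fold change −2.50 ± 0.21, adjusted p = 9.8e-15) and than the GCL (−1.67 ± 0.20, adjusted p = 1.7e-10). Six3 was also low in the ONL, at a mean of 73.0 CPM against 326 in the BCL and 375 in the GCL. Between the BCL and the GCL the pair was called in opposite directions, Six3os1 at 0.84 ± 0.16 (adjusted p = 3.7e-05) and Six3 at −0.37 ± 0.14 (adjusted p = 0.034). Of 18 listed genes of RNAs beside developmental factors, Tunar, typed as protein coding, among them, 7 could be tested. The ONL exceeded the GCL for 2 and the reverse held for 5, against 29.3% and 32.2% of all genes.

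Nuclear lncRNAs had no common layer. Malat1, an RNA of nuclear speckles, where splicing factors gather, was at 2971, 2773, 2393 and 3529.9 CPM in the BCL, 1549, 1324, 1678 and 2231 in the ONL and 1856, 1277, 1436 and 1455 in the GCL. The BCL libraries lay above all others, by a log2 fold change of 0.78 ± 0.12 over the GCL (adjusted p = 5.6e-07), and the ONL and the GCL overlapped (0.31 ± 0.12, adjusted p = 0.024). That last call was lost with DESeq2, with other size factors and without replicate 2, 3 or 4. Endothelial markers were also highest in the BCL, at a median of 0.0835% of UMIs against 0.0121% in the GCL, and Müller glia markers as given above, and their part in the Malat1 level was not tested.

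Miat, a nuclear RNA of neurons, was far higher in the GCL than in the other layers, at 79.0, 48.0, 40.0 and 66.6 CPM, against 5.16, 4.80, 5.08 and 9.89 in the BCL and 7.49, 2.77, 4.57 and 0 in the ONL. Miat was lower in the ONL than the GCL (log2 fold change −3.51 ± 0.36, adjusted p = 2.6e-12). A like pattern was shown by 2900052N01Rik, at 72.6, 55.5, 70.7 and 92.2 CPM in the GCL, 5.16, 14.4, 5.08 and 4.94 in the BCL and 4.99, 5.53, 4.57 and 6.45 in the ONL (ONL against GCL −3.55 ± 0.31, adjusted p = 9.4e-15). C030017B01Rik followed, at 67.5, 49.5, 47.6 and 52.9 CPM in the GCL and 7.49, 2.77, 0 and 0 in the ONL (−3.71 ± 0.39, adjusted p = 3.1e-12), though its identifier carries the name of a coding gene, Kctd16, in GENCODE vM39. Per kilobase of exon, 2900052N01Rik reached 22.5 CPM in the GCL, C030017B01Rik 16.8 and Miat 6.28. In the 5 libraries of TH− amacrine cells, Miat had 9 UMIs (mean 11.8 CPM), 2900052N01Rik 2 (2.41 CPM) and C030017B01Rik 15 (18.1 CPM). Of 6 listed nuclear lncRNAs, 4 could be tested, and the ONL exceeded the GCL for 1 and the reverse held for 2, against 29.3% and 32.2% of all genes. Among 21 listed snoRNA hosts, of which 6 were tested, these numbers were 0 and 3. Among 6 genes listed for a role in the retina, all tested and including Tug1, which is typed as protein coding, they were 3 and 2, and among 4 listed for X inactivation, none of them a member, 2 were tested and both were higher in the ONL.

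Cdr1os and Oip5os1 are linked to one miRNA, miR-7. Cdr1os spans the locus of the circular RNA Cdr1as, which binds that miRNA, and Oip5os1, also called Cyrano, holds a site that leads to its decay. The circular RNA was not measured as such. Cdr1os was at 374, 260.1, 251 and 274 CPM in the ONL, 799.5, 849, 711 and 811 in the BCL and 750.3, 874, 795 and 775 in the GCL. The inner layers overlapped and were not called apart (−0.18 ± 0.12, adjusted p = 0.25), and the ONL was lower than the GCL (log2 fold change −1.27 ± 0.12, adjusted p = 5.5e-14). Oip5os1 went the other way, at 602, 574, 614 and 496 CPM in the ONL, 294, 417, 325 and 311 in the BCL and 298, 252, 234 and 244 in the GCL (ONL against GCL 1.32 ± 0.11, adjusted p = 6.6e-15). Cdr1os lies at chrX:60159705-60247391 and Oip5os1 at chr2:119424396-119437983, both on the plus strand and both with no coding gene in reach of the classes below.

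**Figure D3:**
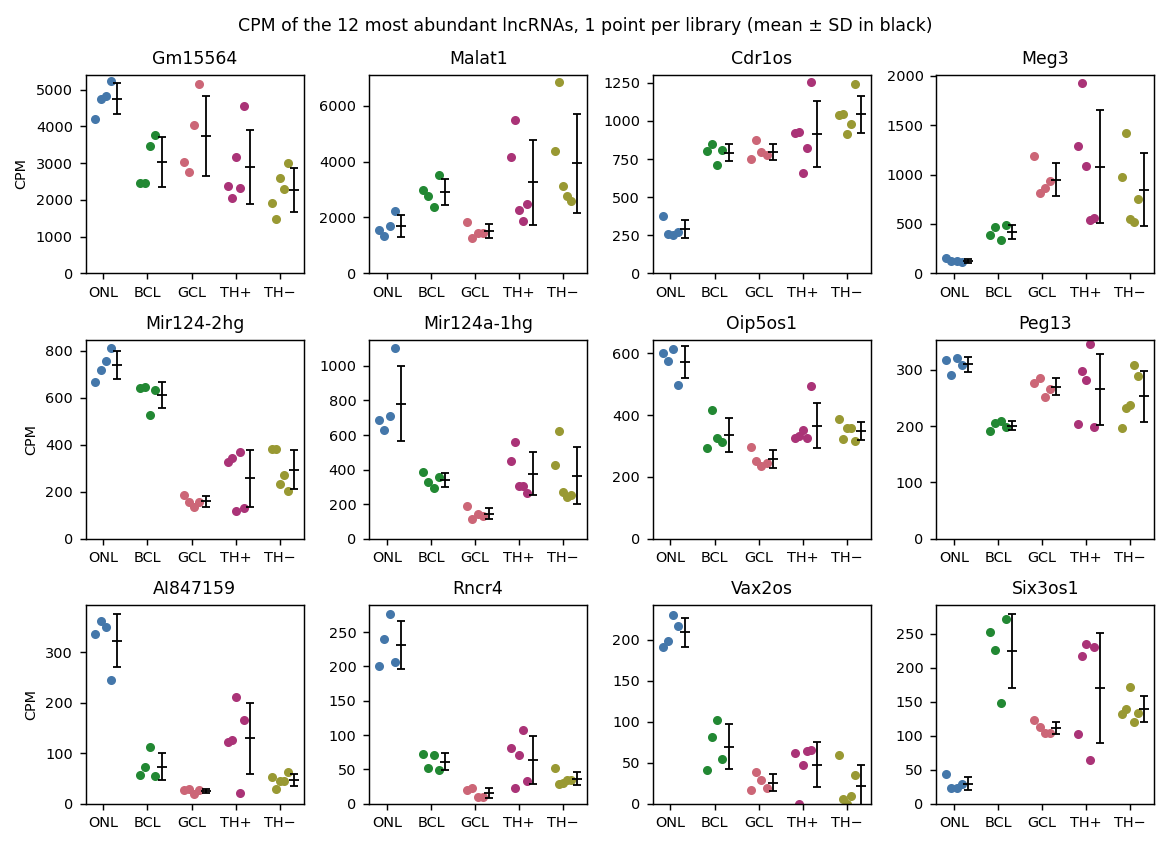
CPM of the 12 most abundant lncRNAs, with 1 point per library (4 for each layer, 5 for TH+ and TH− cells) and the mean ± SD in black. AI847159, Rncr4 and Vax2os are highest in the ONL among the layers, Meg3 in the GCL and Six3os1 in the BCL, and Malat1 and Meg3 spread widely over the amacrine sections.

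Gm15564 stood apart in level and in sequence. Its level was 4197, 4748, 4826 and 5222 CPM in the ONL, 2471, 2452, 3455 and 3767 in the BCL and 3018, 2750.1, 4028 and 5153 in the GCL. Section 4 was highest in each of the 3 layers, and the ONL and the GCL overlapped. In the fit the ONL exceeded the BCL by 0.97 ± 0.14 (adjusted p = 7.1e-08) and the GCL by 0.50 ± 0.14 (adjusted p = 0.0013), and the GCL exceeded the BCL (−0.47 ± 0.14 for BCL against GCL, adjusted p = 0.0054), a call that was lost with DESeq2 and without TMM scaling. Per kilobase it reached 5783 CPM in the ONL, against 243 for Malat1. The gene lies at chr16:35776121-35803658 on the minus strand, opposite Kpna1. In GENCODE vM39, 3 of its 18 transcripts hold an exon stretch at chr16:35802095-35802169. It matched transcripts of Lars2, a mitochondrial leucyl-tRNA synthetase gene, over 75 bases at 98.7% identity in the same orientation. Whether the earlier release used for counting holds the stretch was not tested. That stretch is shown because reads of it could be hard to place.
Gm15564, minus strand: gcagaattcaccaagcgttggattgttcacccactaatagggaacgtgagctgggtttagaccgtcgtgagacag
Lars2 itself was at 12511 ± 1591 CPM in the GCL, 9188 ± 1190 in the BCL and 6735 ± 403 in the ONL (SD, n = 4). Its order differed from that of Gm15564, with ONL lower than GCL (log2 fold change −0.74 ± 0.11, adjusted p = 9.6e-08). The counts are per gene, so the part of the Gm15564 UMIs that came from the shared stretch was not tested, nor was a match of the gene to 28S ribosomal RNA. What the level of Gm15564 measures is uncertain to that extent.

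Many members sit on or beside a coding gene. In GENCODE vM39 (GRCm39), where 50 of the 52 were found by identifier, 20 overlapped a coding gene on the opposite strand, 6 overlapped one on the same strand, 3 started within 2 kb of the start of one and 5 lay on the same strand within 5 kb, a class added after the positions were seen. The other 16 had none of these, C030017B01Rik among them, whose own identifier now bears a coding gene's name. In 20 of the 34 pairs, exons of the member and the coding gene overlap. Both genes could be tested in 30 pairs. Between the ONL and the GCL, 18 pairs were called in the same direction, 4 in opposite directions, 6 for the lncRNA alone and 2 for neither. The coding genes were called in 22 of the 30 pairs (73.3%), against 61.5% of all genes in either direction. Between the ONL and the BCL the numbers were 13, 0, 7 and 8, with 2 called for the coding gene alone, and between the BCL and the GCL 3, 6, 7 and 10, with 4 for the coding gene alone. Across the 30 pairs, Pearson's r of the log2 fold changes was 0.65 for ONL against GCL, 0.86 for ONL against BCL and 0.26 for BCL against GCL. Spearman's rank correlation for the same comparisons was 0.61, 0.79 and 0.021. Both are given as a description, since the values of a pair share libraries.

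In the 4 pairs with opposite calls for ONL against GCL, the lncRNA was higher in the ONL and the coding gene in the GCL. Gm45159, inside Dlg2, a gene of a postsynaptic scaffold protein, was at 37.4, 26.3, 45.7 and 54.8 CPM in the ONL, 77.4, 62.4, 61.0 and 59.3 in the BCL and 12.7, 13.5, 12.3 and 10.2 in the GCL. It was higher in the BCL than the GCL by 2.21 ± 0.32 (adjusted p = 6.5e-08), while Dlg2 was lower by a log2 fold change of −1.17 ± 0.13 (adjusted p = 5.8e-11), at means of 371 and 745 CPM. Gm26954, opposite Pclo, a gene of the presynaptic active zone, was higher in the ONL than the GCL by 3.39 ± 0.30 (adjusted p = 8.4e-15), and Pclo lower (−0.46 ± 0.10, adjusted p = 0.00012). 5930430L01Rik, which overlaps Katnal1 on the same strand, was at 2.59 ± 0.28 and Katnal1 at −0.94 ± 0.20 for the same layers.

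Other named members were called in the same direction as their neighbour in some pairs of layers. 4933431E20Rik was at 3.75, 6.92, 13.7 and 3.22 CPM in the ONL and at 51.6, 72.0, 66.1 and 54.4 in the BCL (log2 fold change −2.82 ± 0.40, adjusted p = 3.7e-08). It runs opposite Gstm5, a glutathione transferase gene, which was at −2.64 ± 0.39 (adjusted p = 1.5e-07). AI504432, beside the potassium channel gene Kcna3, was at 36.1, 57.6, 25.4 and 49.4 CPM in the BCL and 7.49, 5.53, 4.57 and 3.22 in the ONL (−2.51 ± 0.46, adjusted p = 1.0e-05), and Kcna3 was at −2.43 ± 0.55 (adjusted p = 0.00030). Between the BCL and the GCL, AI504432 was called (0.93 ± 0.35, adjusted p = 0.032) and Kcna3 was not (0.69 ± 0.42, adjusted p = 0.20). Chaserr, which overlaps Chd2 on the same strand in the annotation and is known to hold down its expression in cis, was higher in the ONL than the GCL by 1.65 ± 0.32 (adjusted p = 1.1e-05), as was Chd2 by 0.92 ± 0.17 (adjusted p = 4.1e-06). Between the ONL and the BCL only Chaserr was called (1.08 ± 0.40, adjusted p = 0.027), and between the BCL and the GCL only Chd2 (0.67 ± 0.21, adjusted p = 0.011).

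**Figure D4:**
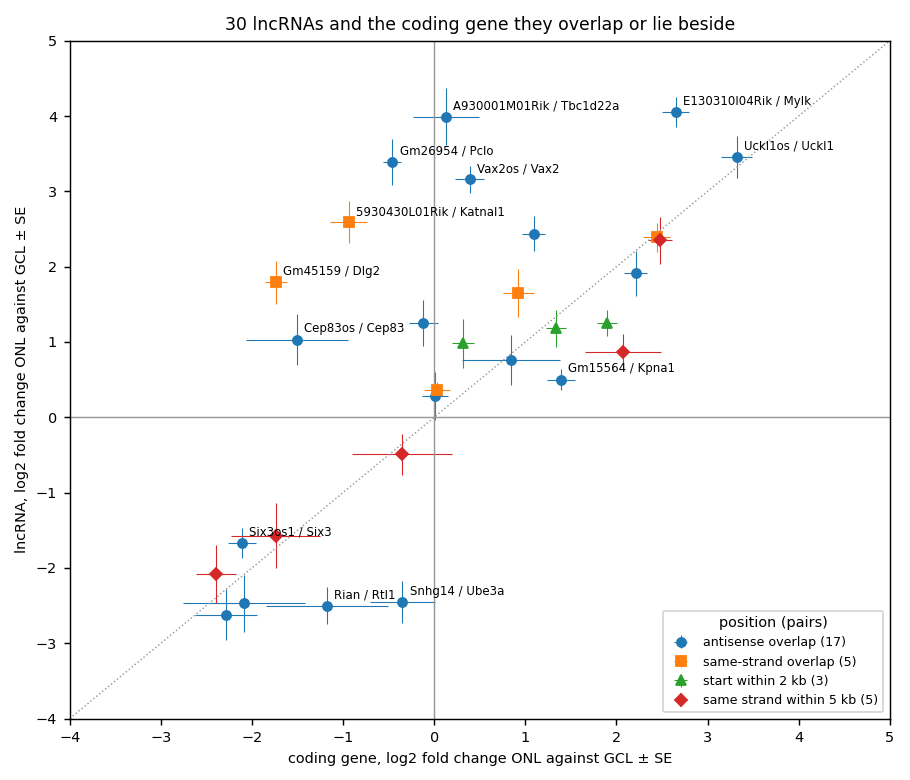
Log2 fold change ± SE, ONL against GCL, of 30 lncRNAs (vertical axis) and of the coding gene they overlap or lie beside (horizontal axis), with a marker for each class of position and a dotted line of equal change. 18 pairs were called in the same direction, and Gm45159, Gm26954, 5930430L01Rik and Cep83os stand in the upper left, where the lncRNA was higher and the coding gene lower in the ONL.

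Between dopaminergic and other amacrine cells few genes of any kind were called. Of 28 members with enough UMIs, 0 were called in edgeR higher in TH+ (0.747% of 6021 genes) and 0 higher in TH− cells (0.083%), so that with such background shares a count of 0 among 28 says nothing particular of the members. At an unadjusted p under 0.05, 3 members were higher in TH+ and 0 in TH− cells, where 3.85% and 5.0% of all genes were. DESeq2 called 1 member, AI847159, higher in TH+ cells, with 0.755% of all genes called higher there and 0.0539% in TH− cells. Depth was low, with a median of 9 UMIs per member over the 5 TH+ libraries and 24 over the 5 TH− libraries, and 27 members had under 10 UMIs in TH+ cells.

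AI847159 came nearest, at 123, 126, 212, 21.6 and 165 CPM in TH+ and 52.6, 28.9, 44.6, 44.9 and 63.4 in TH− cells. 4 of 5 TH+ libraries were above all TH− libraries, and the log2 fold change was 1.41 ± 0.39 (adjusted p = 0.067, edgeR). With the section as a replicate block it was 1.43 ± 0.39 (adjusted p = 0.014), and without replicate 4 it was 1.63 (adjusted p = 0.042). Over all alternatives the adjusted p ranged from 0.014 to 0.46. Gm15706 was at 1.32 ± 0.55 (adjusted p = 0.40), Chaserr at 1.46 ± 0.65 (adjusted p = 0.46), Meg3 at 0.43 ± 0.23 (adjusted p = 0.61) and Gm15564 at 0.32 ± 0.18 (adjusted p = 0.63). AI847159, Gm15706, Chaserr and Gm15564 were in the ONL set among the layers, and Meg3 was in the GCL set. The summed rod markers were higher in TH+ than TH− libraries, with medians of 3.29% and 1.90%. The part of rod RNA in the values of these members was not tested.

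Pairing by section changed the amacrine calls. The fit with the replicate block called 2 members higher in TH+ cells, AI847159 and Gm15564 (0.33 ± 0.09, adjusted p = 0.020), and 1 higher in TH− cells, Malat1 (−0.29 ± 0.09, adjusted p = 0.043), where it called 1.59% and 0.864% of all genes. Malat1 was at 4165, 5500.3, 2258, 1881 and 2474 CPM in TH+ and 4365, 6839, 3133, 2765 and 2587 in TH− libraries of sections 1 to 5. Section 2 was the highest in both populations for Malat1, Meg3, Mir124a-1hg, Kcnq1ot1, Rian, Gm33989 and Mir100hg, 7 of the 28 members tested, as it was for 6.89% of all genes tested. Kcnq1ot1, for example, was at 343 and 446 CPM in section 2, and at 64.9 to 184 and 77.5 to 243 in the other sections. Gm15564 was lowest in section 2 in both, at 2058 and 1469.6 CPM.

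Counted together, the 52 members took, of the 3 layers, the largest share of UMIs in the ONL and the smallest in the GCL in each of the 4 sections. ONL libraries ranged from 1.1002% to 1.30% (mean 1.18 ± 0.0907, SD, n = 4), BCL libraries from 0.992% to 1.19% (1.05 ± 0.0961) and GCL libraries from 0.778% to 1.04% (0.916 ± 0.109). All ONL libraries lay above all GCL libraries. ONL and GCL means differed by 0.263 percentage points, and ONL and BCL, and BCL and GCL, by 0.132 each. The members were chosen on these same UMIs, and 32 of them reached 100 UMIs only with their highest layer, so the differences are given with no test. The 20 members that reached it without their highest layer took 1.04 ± 0.0901% of ONL, 0.962 ± 0.0985% of BCL and 0.834 ± 0.107% of GCL UMIs (SD, n = 4). Their ONL and GCL libraries overlapped, at 0.9615% in the lowest ONL library and 0.963% in the highest GCL library, and the order of the layers within each section was as for all members. TH+ and TH− cells had shares of 1.11 ± 0.225% and 1.09 ± 0.221% (SD, n = 5), a difference smaller than the spread between libraries. Gm15564 weighs on these shares. Without it, the members' share in the ONL and the BCL exceeded the GCL by 0.164 and 0.202 percentage points, and the ONL minus the BCL was −0.0383. For the other 19 of the 20 members, the values were 0.560 ± 0.0567% of ONL, 0.659 ± 0.0663% of BCL and 0.4602 ± 0.0487% of GCL UMIs.

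**Figure D5:**
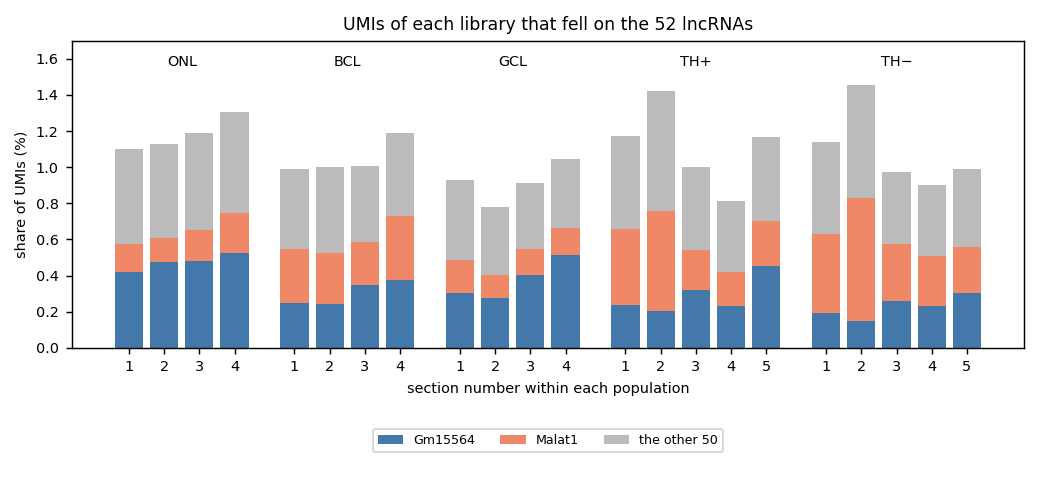
Share of each library's UMIs (%) on Gm15564, on Malat1 and on the other 50 lncRNAs, stacked, for each section of the 3 layers and the 2 amacrine populations. Total shares lie between 0.778% (GCL, section 2) and 1.46% (TH−, section 2). Malat1 takes more than Gm15564 in sections 1 and 2 of both amacrine populations, TH− sections 3 and 4 and BCL sections 1 and 2.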

How the data were processed

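Per the labels and methods, the authors used UMI-tools 1.1.1 to read barcodes and UMIs, mapped cDNA with STAR 2.7.9a to GENCODE mouse genes (GRCm39), discarded multimapped reads, assigned reads to exons with featureCounts, which by default ignores strand and drops reads on exons of 2 genes, collapsed UMIs per gene, removed 2 ribosomal RNA genes and split by exact barcode. The deposited counts are UMIs per gene, not normalized. The deposited gene length was used for values per kilobase.

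CPM is per 1000000 UMIs of the library. Layers (12 libraries, 1 fit) and amacrine cells (10 libraries, 1 fit) were tested with the edgeR 4.0.16 quasi-likelihood F-test in R 4.3.3. TMM scaling was used, with Benjamini-Hochberg adjustment over 11324 and 6021 genes. The filterByExpr minimum was a count of 3, scaled by library size, and 10 in total. The count of 3 is asked of about as many libraries as a group holds, not of every library. SE is the absolute log2 fold change divided by the square root of F. A fitted fold change includes TMM factors. These raise ONL against BCL relative to CPM, with the median of all genes at 0.09 with TMM and −0.25 without. The common biological coefficient of variation was 9.165% and 16.05%. Shares of UMIs (python 3.11.15, scipy 1.17.1) are given with no test, since the same UMIs chose the members. Libraries of a section come from the same tissue, which pairs them. Residuals of same-section libraries correlated at 0.0106 to 0.0495 over 12 pairs of layers and 0.0284 to 0.256 over 5 amacrine pairs.

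Members, role lists and tests were chosen with earlier results of these data known. Named are the 12 members with most UMIs, the 5 per direction of each pair of layers with the smallest adjusted p among those without overlap, the 5 with the smallest p between TH+ and TH− cells, and all members on a role list (imprinted, nuclear, X inactivation, snoRNA host, miRNA host, transcription factor neighbour, retina). Promoters follow, among members in the promoter table, the 2 per layer called over both others with the smallest larger adjusted p. Rncr4 and Mir124a-1hg, which come before E130310I04Rik by p, have no located promoter. 2 of these 6, with starts over 1 kb from the vM39 start, are not shown. 35 members were in the promoter table. Alternatives were DESeq2 1.42.0, RLE size factors, no or the default low-count filter, the replicate block, mitochondrial genes left out, the top 3 members left out of scaling, a log2 fold change of at least 1, each replicate left out and, chosen after the data were seen, column totals without TMM and, for the shares, the 20 members that keep 100 UMIs without their highest layer. The code was tested on simulated data. The human counts, the deeper run and the pooled library were not analysed here.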

Additional observations from a re-analysis of the deposited data

Results flagged for a closer look

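Of 130 groups of 4 or 5 libraries (25 named members and the summed share, in 5 populations), 15 had a library far from the rest by Dixon's criterion, which chance gives in about 5% of groups. In the layers, Mir124a-1hg stood at 1102 CPM in ONL section 4 (others 627 to 708), Mir124-2hg at 528 in BCL section 3 (others 633 to 648), AI847159 at about 20 CPM (19.98) in GCL section 3 (others 27.3 to 28.5), 2900052N01Rik at 14.4 in BCL section 2 (others 4.94 to 5.16), Miat at 9.89 in BCL section 4 (others 4.80 to 5.16) and Gm45159 at 77.4 in BCL section 1 (others 59.3 to 62.4). The share of all 52 members was 1.19% in BCL section 4 (others 0.992% to 1.01%). In TH− cells, section 2 stood out for Rian at 208 CPM (others 35.2 to 72.3), Snhg14 at 139 (others 42.3 to 65.7) and Chaserr at 52.1 (others 4.99 to 7.44). Rncr4 was at 52.6 in TH− section 1 (others 28.9 to 35.2) and Gm15706 at 42.3 in TH− section 5 (others 11.6 to 19.97). In TH+ cells, Oip5os1 was at 495 in section 5 (others 324 to 353), Vax2os was at 0 in section 2 (others 47.1 to 66.0) and Miat was at 11.4 in section 2, where the others were at 0. Several of these libraries held few UMIs: 1 and 2 for Miat in TH+ section 2 and BCL section 4, 3 for 2900052N01Rik, 6 for Gm15706, 8 for Rncr4, 9 for Chaserr and 13 for AI847159. The 4 TH+ libraries with Vax2os held 2 to 3 UMIs of it.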

How the results depend on the processing

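Counts of members called between layers stayed within 1.5 times of the values given under all alternatives, and no member called between layers changed direction. They ranged over 21 to 25 (ONL above BCL), 10 to 15 (BCL above ONL), 26 to 33 (ONL above GCL), 14 to 17 (GCL above ONL), 15 to 26 (BCL above GCL) and 9 to 11 (GCL above BCL). The replicate block left the layer calls as they were (37, 47 and 32 members, all shared) and moved the amacrine calls to 2 for TH+ and 1 for TH−. DESeq2 called 1 member for TH+, and leaving out 1 section in turn gave 0 to 1, the 1 being AI847159 without replicate 4. Leaving out 1 section gave 23 to 24, 10 to 13, 29 to 32, 14 to 15, 15 to 22 and 10 to 11 calls for the 6 layer directions in the same order. Column totals without TMM scaling, an alternative chosen after the data were seen, gave the 15 and the 26 calls. The share of UMIs depended on Gm15564 and on the minimum. With all lncRNA symbols it differed by −0.0079 points (ONL minus BCL), 0.333 (ONL minus GCL), 0.341 (BCL minus GCL) and −0.0249 (TH+ minus TH−). Without Gm15564 the values were −0.0383, 0.164, 0.202 and −0.0407. Without replicate 5 TH+ minus TH− was −0.0156. Leaving out 1 section gave 0.115 to 0.1397, 0.2355 to 0.2943, 0.1017 to 0.1546 and −0.0156 to 0.0501. In TH+ libraries a member at the median had 9 UMIs in all, which limits the amacrine comparison.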
